A study of Mus musculus with 12 samples.

Results

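The cortical epithelial hallmark proteins described here are 9 genes, Prss16, Ly75, Tbata, Enpep, Prss23, Crip3, Phex, Dcdc2a and Mgll, of the 23306 gene symbols in the deposited table. They were selected on their level in the cortical epithelium of these libraries, or as proteins known there, outside the transcription factors and the proteasome. All 9 were found by their symbols and all 9 passed the filter on low counts. The choice was made with the cortical and medullary levels of this series known. The differences between cortical epithelium and the other groups are therefore descriptions and carry no p-value. Of the 9, 7 had cortical libraries above all others, while Prss23 and Mgll were as high or higher in endothelium. The choice of the genes favoured that count, and nothing is read from it. Of all tested genes, 18.7% had every cortical library above every medullary one, and 22.6% and 21.9% did so against each endothelial group. The share above all groups at once was not computed. Crip3 and Tbata were also abundant in medullary epithelium.

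The RNA came from sorted thymic stromal cells of C57BL/6 mice with a red fluorescent (tomato) reporter for Kit ligand, a growth factor of early T-cell progenitors. All 12 libraries, in 4 groups of 3, came from cells that were negative for blood lineage markers and for the dead-cell dye DAPI. Vascular endothelial cells (VEC) were sorted as EpCAM- CD31+ and split into tomato+ VEC and tomato- VEC. Epithelial cells were sorted as EpCAM+ CD31-, and taken as tomato+ cortical cells (cTEC) that were UEA1- Ly51+, or as tomato- medullary cells (mTEC) that were UEA1+ Ly51-. In epithelium the reporter thus changed together with the UEA1 and Ly51 gates, and their effects cannot be told apart. The sources used here give neither age, sex nor number of mice. They also do not say whether replicates were different animals, and a p-value here speaks only of the spread among these 12 libraries. In sorted bulk samples, fewer cells of a type and less RNA per cell cannot be told apart.

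Cortical epithelial cells form the outer part of the thymic stroma, where they display peptides to immature T cells and so select those with useful receptors. They take up and cut proteins with enzymes that are unusual among epithelial cells, and a thymus-specific protease and an endocytic lectin are among their best known hallmarks. Several of the 9 genes encode enzymes that cut proteins or peptides, and another encodes a lipase.

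Total counts per library were 8388869 to 11807130. Levels are given as CPM, counts scaled to library size with TMM factors, and, where genes are compared with each other, as RPKM, which divides by gene length. Counting intervals and the floor of 3 counts over a group cover counting error only. Epcam encodes a sorting antigen, so its level follows the gate and only checks the labels. It was 352 ± 14.4 CPM among mTEC libraries and 239 ± 23.4 CPM among cTEC libraries (SD, n = 3). Tomato+ VEC had 0 counts of Epcam and tomato- VEC 3. Kitl, the gene of Kit ligand, had 1043 ± 436 CPM in tomato+ VEC and 438 ± 40.7 CPM in tomato- VEC. It had 222 ± 35.3 CPM in cTEC and 22.0 ± 15.9 CPM in mTEC (SD, n = 3). Tomato- VEC thus did not lack Kitl and held more of it than tomato+ cTEC. The medullary regulator Aire had 3 counts in cTEC and 5001 in mTEC. The 8 endothelial markers include Pecam1, the gene of the sorting antigen CD31. They summed to 8952 to 11722 CPM in endothelial libraries, and to 20.2, 381 and 4.16 CPM in cTEC replicates 1, 2 and 3. The 11 thymocyte markers summed to 74.4 to 126 CPM in cTEC and 28.1 to 44.9 in mTEC. The 6 fibroblast markers summed to 1590 to 2124 CPM in cTEC, 131 to 396 in mTEC and 8.41 to 50.3 in endothelium. Nearly all of the cortical sum was Dcn (1864 ± 267 CPM; SD, n = 3), which encodes the matrix proteoglycan decorin, while Pdgfra was at 3.88 ± 4.66 and Col1a1 at 6.79 ± 5.65 CPM. The fibroblast and thymocyte sums were highest in cTEC, as were the 9 genes other than Prss23 and Mgll. The part of such cells in the levels below was not tested.

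**Figure D1:**
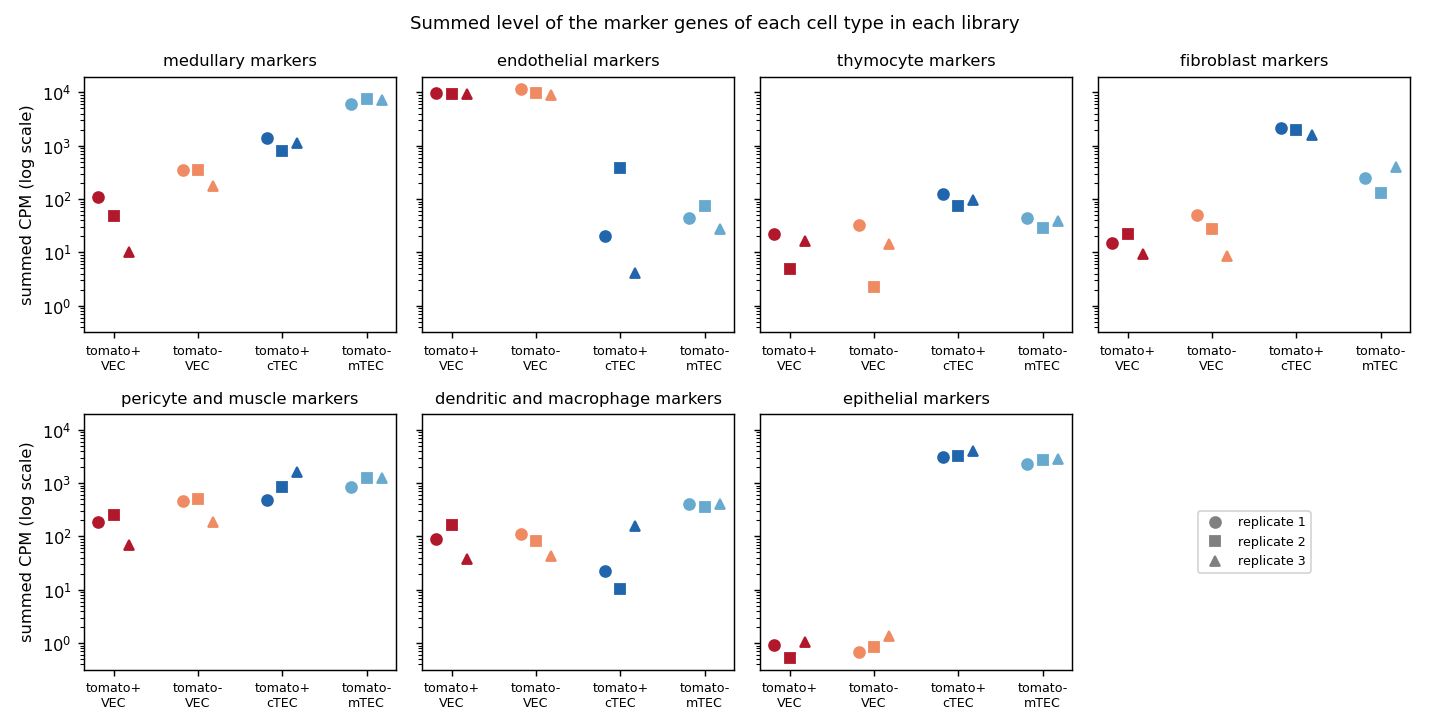
Summed CPM (vertical axes, log scale) of 7 lists of cell type markers in each of the 12 libraries, 1 panel per list, with 1 symbol shape per replicate number. Endothelial markers are high in both VEC groups and low in epithelium, where cTEC replicate 2 stands out at 381 CPM, and the fibroblast sum is highest in cTEC.

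Prss16 encodes the thymus-specific serine protease, a peptidase of endosomes and lysosomes that shapes the peptides shown to CD4 T cells. It stood at 1318, 1079 and 829 CPM in the 3 cTEC libraries. In mTEC it was at 15.1, 20.5 and 17.8 CPM, and in endothelium it had 5 counts over 3 tomato+ VEC libraries and 4 over 3 tomato- VEC libraries. The cTEC libraries were above all mTEC libraries and these above all endothelial ones, while the endothelial groups overlapped. The medullary level was 1.66 ± 0.25% of the cortical mean (SD, n = 3). The fitted difference between cTEC and mTEC was log2 5.92 (SE 0.32).

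Ly75 encodes DEC-205, an endocytic lectin receptor of cortical epithelium and dendritic cells. Its cTEC libraries held 119, 132 and 167 CPM. The mTEC libraries held 2.22, 6.39 and 13.3 CPM. In endothelium the tomato+ VEC libraries had 0, 0.654 and 0 CPM and the tomato- VEC libraries 0.445, 6.27 and 11.8 CPM. The cortical libraries were above all others, while mTEC and tomato- VEC overlapped and so did the endothelial groups. The difference between cTEC and mTEC was log2 4.25 (SE 1.16). The 9 dendritic cell and macrophage markers summed to 351 to 409 CPM in mTEC libraries and 10.3 to 159 CPM in cTEC libraries. In mTEC Lyz2 held 353 ± 38.9 CPM of this (SD, n = 3), while Clec9a had 0 counts. The part of such cells in the medullary Ly75 counts was not tested.

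Enpep encodes the glutamyl aminopeptidase that immunologists call Ly51, an enzyme known for trimming angiotensin II. Since Ly51 was a sorting antigen, its level in epithelium follows the gate and is not a finding. It stood at 103, 101 and 64.9 CPM in cTEC. The mTEC libraries, which the gate took as Ly51-, had 15.8 CPM (replicate 1), no count (replicate 2) and 35.8 CPM (replicate 3). The highest medullary library thus reached 40.0% of the cortical mean. Endothelial libraries held at most 0.672 CPM.

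Phex and Dcdc2a were low but nearly limited to the cortical libraries. Phex encodes a membrane endopeptidase of bone and tooth cells whose loss raises the phosphate hormone FGF23. It stood at 14.8, 26.7 and 21.0 CPM in cTEC, with 1 count in total in each of the other 3 groups. The cortical level was 651-fold the medullary one, with a counting interval of 116 to 25749. Dcdc2a encodes a doublecortin-domain protein that binds microtubules and is found in cilia. It stood at 25.2, 21.2 and 24.1 CPM in cTEC, again with 1 count in each other group, a ratio to mTEC of 740 (counting interval 133 to 29286). Both genes had libraries of cTEC above all others and did not separate the other 3 groups.

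Promoters of members that moved together, or that stood apart, are shown here. They are RefSeq sequences of build GRCm38.p6, another build than the mm9 of the counts, and run from 250 bases before to 50 bases after a gene's start. An entry was found for 7 of the 9 genes, the others being Prss16 and Crip3. The search, on both strands, was for GACGC, the core motif known for Foxn1, the transcription factor of thymic epithelium, and for the TATA box letters TATAAA. Capitals mark these letters or their reverse complement. Read in the order below, the windows are chrX:157415237-157415536 (- strand), chr13:25055754-25056053 (+), chr3:129332700-129332999 (-), chr10:61171714-61172013 (+) and chr6:88724162-88724461 (+). The motifs do not overlap each other. Phex and Dcdc2a are shown as the pair limited to cTEC, Enpep as the sorting gene, Tbata as a gene of both epithelia, and the upstream start of Mgll as the gene highest in tomato+ VEC.
Phex: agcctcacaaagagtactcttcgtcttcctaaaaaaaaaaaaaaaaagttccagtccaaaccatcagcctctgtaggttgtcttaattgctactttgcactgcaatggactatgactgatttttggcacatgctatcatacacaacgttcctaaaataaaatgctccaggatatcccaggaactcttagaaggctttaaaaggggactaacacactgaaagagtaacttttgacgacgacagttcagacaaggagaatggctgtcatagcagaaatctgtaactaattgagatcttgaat
Dcdc2a: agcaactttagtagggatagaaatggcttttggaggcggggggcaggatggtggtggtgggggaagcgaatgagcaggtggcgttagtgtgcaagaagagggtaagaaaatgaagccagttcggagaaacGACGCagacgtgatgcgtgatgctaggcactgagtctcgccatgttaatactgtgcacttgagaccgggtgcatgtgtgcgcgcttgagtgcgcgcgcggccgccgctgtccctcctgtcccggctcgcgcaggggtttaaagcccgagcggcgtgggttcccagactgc
Enpep: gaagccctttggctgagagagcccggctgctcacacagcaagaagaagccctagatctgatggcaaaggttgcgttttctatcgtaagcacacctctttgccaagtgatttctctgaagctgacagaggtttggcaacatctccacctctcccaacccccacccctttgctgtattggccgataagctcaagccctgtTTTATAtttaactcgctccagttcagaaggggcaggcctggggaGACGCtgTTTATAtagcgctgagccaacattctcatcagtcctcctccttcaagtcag
Tbata: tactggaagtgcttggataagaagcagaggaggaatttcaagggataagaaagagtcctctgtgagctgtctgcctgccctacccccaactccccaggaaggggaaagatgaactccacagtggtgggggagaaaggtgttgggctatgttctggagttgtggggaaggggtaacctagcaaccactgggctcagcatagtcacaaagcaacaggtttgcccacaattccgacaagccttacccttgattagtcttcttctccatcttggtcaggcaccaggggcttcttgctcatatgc
Mgll: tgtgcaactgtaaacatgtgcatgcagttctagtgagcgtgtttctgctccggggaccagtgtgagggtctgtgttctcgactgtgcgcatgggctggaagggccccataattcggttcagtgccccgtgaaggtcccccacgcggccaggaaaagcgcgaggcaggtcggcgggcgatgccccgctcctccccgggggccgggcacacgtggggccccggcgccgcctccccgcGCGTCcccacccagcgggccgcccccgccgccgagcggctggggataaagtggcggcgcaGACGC
Among these, GACGC was found in the promoters of Dcdc2a, Enpep and Mgll and not in those of Phex and Tbata. Over the 7 genes 4 held it in at least 1 promoter, Prss23 with its several annotated starts being the fourth. Among all 32851 RefSeq promoters of this length, 27.2% held it, and of 27025 genes 29.6% held it in at least 1 promoter. TATAAA was found for Enpep only, in each match as its reverse complement. The matches begin 52 bases and 1 base before the start. Of all promoters 13.6% held it on either strand, and of all genes 15.7% held it in at least 1 promoter. The Tbata promoter had 1 CG dinucleotide and 51.7% G and C, and the Mgll promoter 32 and 70.0%. A match is a description of letters and not of binding.

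Tbata and Crip3 were genes of both epithelia. Tbata encodes a protein of thymic stroma, testis and brain that is known to restrain the growth of thymic epithelium. It was at 2337, 3453 and 3054 CPM in cTEC and at 1004, 950 and 746 CPM in mTEC. Endothelium had 9 counts over the tomato+ VEC and 40 over the tomato- VEC libraries, 34 of the latter in replicate 3. The medullary level was 30.5 ± 4.62% of the cortical mean (SD, n = 3) and the difference log2 1.71 (SE 0.60). Crip3 encodes a LIM-domain protein first described in thymus. Its cTEC libraries held 395, 556 and 687 CPM and its mTEC libraries 302, 364 and 270. These groups came close, the lowest cortical library at 395 against the highest medullary one at 364, and the difference was log2 0.81 (SE 0.32). Crip3 had 1 count in all of tomato- VEC and none in tomato+ VEC, where 0 counts allow a level of up to 0.113 CPM. Its cortical level was at least 4866-fold higher than that in tomato+ VEC.

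**Figure D2:**
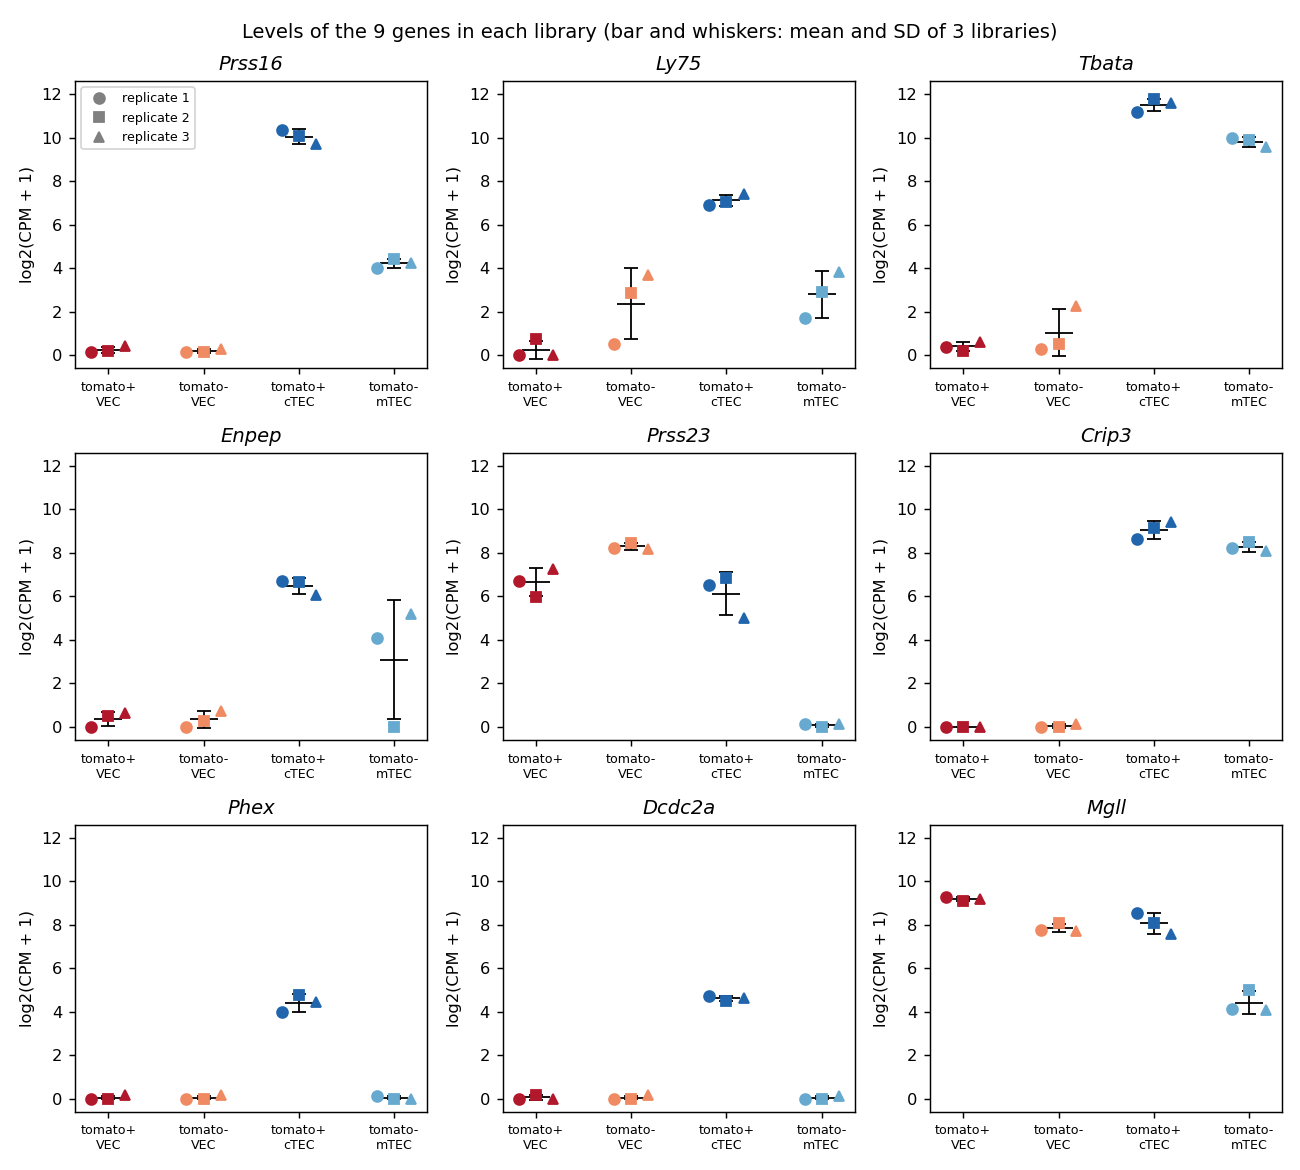
Level of each of the 9 genes as log2(CPM + 1) (vertical axes) in the 3 libraries of each group, with 1 symbol shape per replicate number and the group mean and SD in black. Prss16, Ly75, Enpep, Phex and Dcdc2a are highest in cTEC by a wide margin, Tbata and Crip3 are high in cTEC and mTEC, and Prss23 and Mgll are high in endothelium and cTEC and low in mTEC.

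Prss23 and Mgll went against the label, since the endothelial level of each was at or above the cortical one. Prss23 encodes a secreted serine protease of the trypsin fold. It stood at 298, 355 and 292 CPM in tomato- VEC, at 104, 61.3 and 152 in tomato+ VEC and at 91.0, 114 and 30.8 in cTEC. The tomato- VEC libraries were above all others, and those of tomato+ VEC and cTEC overlapped. In mTEC it had 2 counts over 3 libraries, so that the cortical level was 1207-fold the medullary one with a counting interval of 334 to 9972. Tomato- VEC exceeded cTEC by 4.01-fold, as the fitted cTEC difference was log2 -2.00 (SE 0.47).

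Mgll encodes monoacylglycerol lipase, which breaks down the endocannabinoid 2-arachidonoylglycerol. It was highest in tomato+ VEC, at 619, 544 and 573 CPM. The cTEC libraries held 369, 270 and 188 CPM and the tomato- VEC libraries 218, 269 and 206, and these groups overlapped. In mTEC it stood at 16.2, 31.4 and 16.1 CPM, below all libraries of the other 3 groups. The difference was log2 3.70 (SE 0.34) between cTEC and mTEC and log2 -1.07 (SE 0.31) between cTEC and tomato+ VEC. The endothelial marker sum in cTEC was 4.16 and 20.2 CPM in replicates 3 and 1, where Prss23 stood at 30.8 and 91.0 CPM and Mgll at 188 and 369. Without cTEC replicate 2, the library with the endothelial sum of 381 CPM, the cortical mean was 60.9 CPM for Prss23 against 78.5 with it, and 279 CPM for Mgll against 276. Leaving out this library for these means was not decided in advance. In replicates 1 and 3 both genes were above every mTEC library, an order that the choice of the genes fixed. The part of endothelial cells in the cortical levels of Prss23 and Mgll was not tested.

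Ranked per length, the cortical levels of the 9 genes spanned a wide range. In cTEC, Tbata had a mean of 2137 RPKM and was number 18 of the 17913 genes with a count in that group. Crip3 followed at 595 RPKM (number 96) and Prss16 at 555 (number 106). Mgll stood at 76.8 RPKM, Ly75 at 29.8, Prss23 at 27.1 and Enpep at 23.6. At the low end were Dcdc2a at 3.78 and Phex at 3.68 RPKM. In mTEC, Tbata (620 RPKM, number 104 of 19255) and Crip3 (323 RPKM, number 248) were still among the abundant transcripts, while Prss16 was at 8.68 RPKM.

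The share of the cortical level that was left in mTEC differed from gene to gene. It was 57.2 ± 8.80% for Crip3, 30.5 ± 4.62% for Tbata, 19.2 ± 20.0% for Enpep, 7.69 ± 3.19% for Mgll, 5.24 ± 4.02% for Ly75 and 1.66 ± 0.25% for Prss16 (SD, n = 3). For Phex, Dcdc2a and Prss23 it was 0.154, 0.114 and 0.0750%, from 1, 1 and 2 counts. The medullary libraries did not rank alike for these genes. Replicate 3 was highest for Ly75 and Enpep, replicate 2 for Prss16, Crip3 and Mgll, and replicate 1 for Tbata. For each 100 counts of Prss16, cTEC libraries held 9.00 to 20.2 counts of Ly75 and mTEC libraries 14.7 to 74.8. In the same way they held 7.79 to 9.36 counts of Enpep in cTEC, and 104, 0 and 201 in mTEC replicates 1, 2 and 3.

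**Figure D3:**
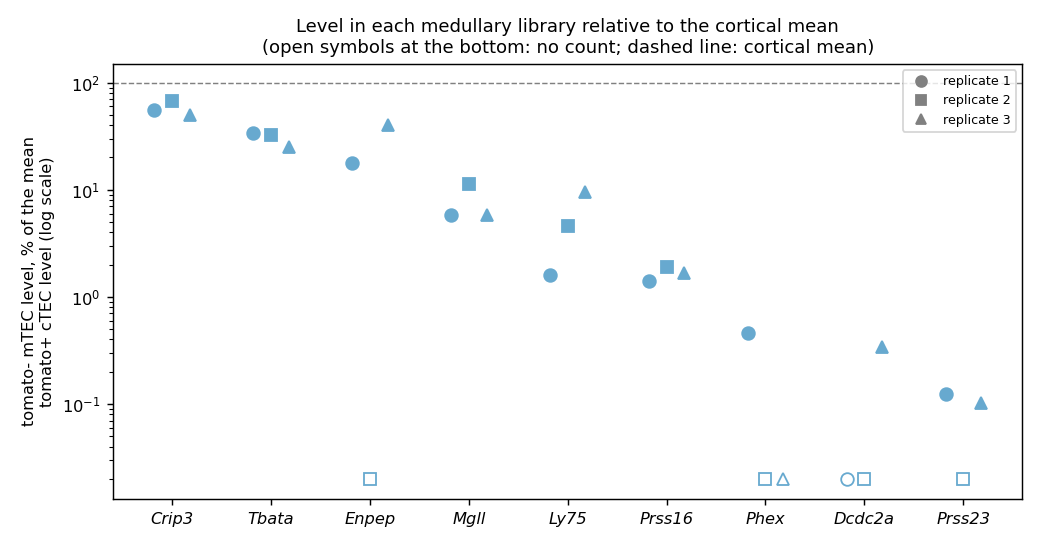
Level in each mTEC library as a percentage of the mean cTEC level (vertical axis, log scale) for the 9 genes, ordered by their mean, with open symbols at the bottom for libraries without a count. Crip3 retains 57.2% on average, Prss16 1.66% and Prss23 0.0750%, and Enpep ranges from no count to 40.0%.

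Set against all 14792 genes tested, 9 of the 9 genes had every cTEC library above every mTEC library. Of all tested genes 18.7% did so and 20.3% did the opposite, and edgeR called 7.83% in either direction, but the choice of the 9 fixed this direction and nothing is read from it. Against tomato+ VEC, 7 of the 9 had all cortical libraries higher (22.6% of all genes) and 1, Mgll, had all lower (15.5%), where edgeR called 21.9% of all genes, 12.4% higher and 9.45% lower. Against tomato- VEC the numbers were the same, 7 higher (21.9% of all genes) and 1 lower (16.8%), the lower gene here being Prss23, beside 19.2% called, 10.6% higher and 8.63% lower. These comparisons share the cTEC libraries. Across the 12 libraries, Pearson's r of log2(CPM + 1), given as a description, was 0.99 between Tbata and Crip3, 0.99 between Phex and Dcdc2a and 0.88 between Prss23 and Mgll. Prss16 had r of -0.25 with Prss23 and -0.17 with Mgll. The points share the library and its group.

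The reporter contrast within endothelium was not used to choose the 9 genes and was tested. Mgll was higher in tomato+ VEC and Prss23 higher in tomato- VEC in every library, but neither difference passed. Mgll had 544 to 619 CPM in tomato+ against 206 to 269 CPM in tomato- VEC, a difference of log2 1.33 (SE 0.31, edgeR adjusted p = 0.0552). Prss23 had 61.3 to 152 against 292 to 355 CPM, log2 -1.57 (SE 0.46, edgeR adjusted p = 0.116). Libraries of all 3 replicates were separated, as were those of 7.46% of all tested genes in the direction of Mgll and 8.32% in that of Prss23.

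None of the 9 genes passed in this contrast (edgeR quasi-likelihood test, adjusted p under 0.05). Of all tested genes 1.65% did, 0.568% higher and 1.08% lower in tomato+ VEC, but nothing is read from this comparison: most of the 9 passed the low-count filter through their epithelial counts, and with the endothelial libraries alone 2 of the 9, Prss23 and Mgll, were tested. At an unadjusted edgeR p under 0.05 there were 4, Ly75, Tbata, Prss23 and Mgll. The share of all tested genes at that level was not computed, and nothing is read from the count. DESeq2, with 1324 genes called in this contrast, called 3 of the 9, namely Mgll (adjusted p = 0.0031), Ly75 (0.00239) and Prss23 (0.0390). Limma-trend called Mgll with log2(RPKM + 1) (adjusted p = 0.0436), among 473 genes. With log2(RPKM + 0.1) it called 447 genes and none of the 9. In that fit of the 6 endothelial libraries alone, Mgll passed (edgeR adjusted p = 0.0234) and Prss23 did not (0.0947). Mgll also passed without the low-count filter (edgeR adjusted p = 0.0370). It did not pass on leaving out any single library of the 6 (edgeR adjusted p of 0.0640 to 0.142).

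Ly75 was listed with 5 counts in tomato+ VEC, all in replicate 2, and with 168 in tomato- VEC (log2 -4.86, SE 1.34, edgeR adjusted p = 0.0928). The tomato- VEC libraries held 4, 59 and 105 of them, and the groups overlapped. In these 3 libraries Prss16 had 1, 1 and 2 counts, which gives 400, 5900 and 5250 counts of Ly75 for each 100 of Prss16 against 9.00 to 20.2 in cTEC. Of the 9 dendritic cell and macrophage markers, 7 had counts in tomato- VEC, and they summed to 111, 83.3 and 43.1 CPM in replicates 1, 2 and 3. Clec9a held 33.0, 43.5 and 29.0 CPM of these sums and Zbtb46 9.13, 24.3 and 8.07 CPM, while Lyz2 was at 43.2 CPM in replicate 1 and at most 0.112 CPM in the others. Flt3 and Itgax were at 0 counts, and Csf1r had 2 counts over the 3 libraries. Ptprc, the gene of the leukocyte antigen CD45 and 1 of the thymocyte markers, was also at 0 counts there. In tomato+ VEC, with 5 counts of Ly75, 8 of the 9 markers had counts. They summed to 90.7, 166 and 37.2 CPM in replicates 1, 2 and 3. The part of such cells in the Ly75 counts was not tested. The Tbata difference, log2 -2.10 (SE 0.87, edgeR adjusted p = 0.259), rested on tomato- VEC replicate 3 and was log2 0.064 without it. For Crip3, Phex and Dcdc2a the endothelial groups were at or under 3 counts and no fold is given. Prss16 and Enpep had log2 0.33 (SE 0.58) and 0.053 (SE 1.69), from 5 against 4 and from 8 against 8 counts.

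**Figure D4:**
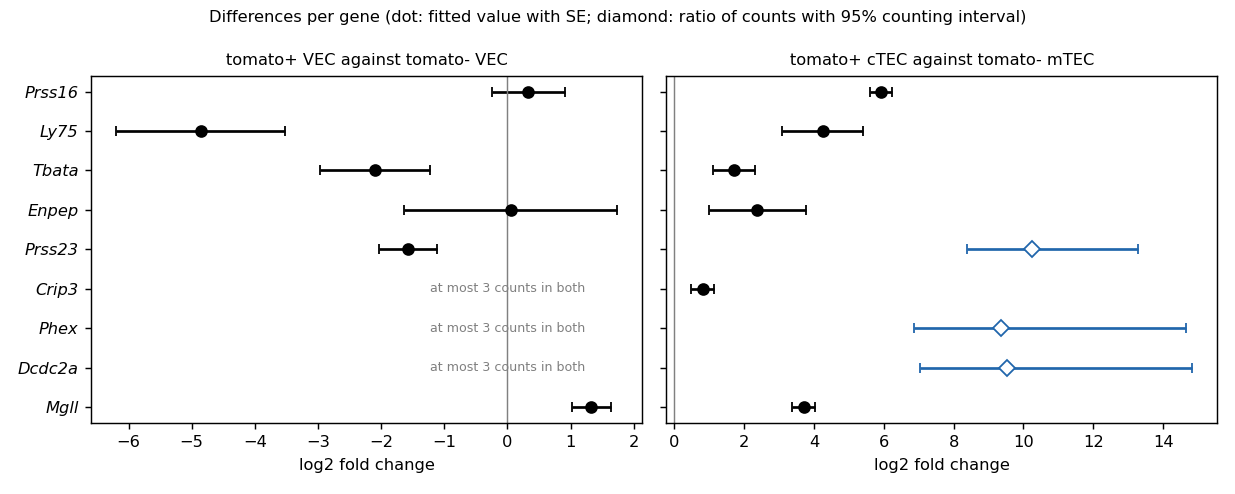
Log2 fold change (horizontal axes) of each of the 9 genes in the reporter contrast within endothelium (left) and between cTEC and mTEC (right), as fitted values with SE (dots) or ratios of counts with 95% counting intervals (diamonds). On the left Mgll lies at 1.33 and Prss23 at -1.57, neither past the threshold; on the right all 9 lie above 0, which the choice of genes fixed.

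Other genes known for cortical epithelium formed a list that leaves out the 9. It was chosen as cortical and with earlier results of these data known. Its direction in cTEC against mTEC is thus no independent finding, and the adjusted p-values of this comparison carry that limit. Of 13 such genes 7 rose in cTEC against mTEC, none fell and 6 did not pass, with a median of log2 2.41 against 0.019 over all 14792 tested genes, of which 2.73% rose and 5.1% fell. Ctsl, the cathepsin of cortical antigen processing, had a mean of 7214 ± 1174 CPM in cTEC libraries and 1810 ± 869 CPM in mTEC libraries (SD, n = 3). The difference was log2 1.99 (SE 0.29) with an edgeR adjusted p of 0.00198. Cd83, a surface molecule by which cortical epithelium aids CD4 T-cell development, was at 279 ± 30.0 and 23.2 ± 11.7 CPM, a difference of log2 3.59 (SE 0.51) with an edgeR adjusted p of 0.00313. Cxcl12 and Psmb11, with Ctsl and Cd83 the others of smallest p, had log2 4.91 (SE 0.46) and 4.56 (SE 0.45) with edgeR adjusted p of 0.000155 and 0.000209. The other 3 calls, of Ccrl1, Dll4 and Pax1, all ended without mTEC replicate 1 (edgeR adjusted p over all their leave-outs up to 0.0840, 0.0640 and 0.0911), and those of Ccrl1 and Pax1 also without mTEC replicate 2. The Pax1 call ended without cTEC replicate 1 or 2 as well. The calls of the first 4 were not lost on leaving out any single library of the 6. In tomato+ against tomato- VEC, Ctsl fell (log2 -2.49, SE 0.29, edgeR adjusted p = 0.00116), with 1020 ± 120 against 5718 ± 857 CPM (SD, n = 3). Il7 also fell and Cxcl12 rose, and the other 10 did not pass. The Il7 call was lost with the 6 endothelial libraries fitted alone (edgeR adjusted p = 0.145).

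Relatives of the members by enzyme class were compared between cTEC and mTEC, where 7.83% of all tested genes were called. Of 15 tested serine peptidases of the classes of Prss16 and Prss23, none rose in cTEC, 1 fell and 14 did not pass (median log2 -0.68). The gene that fell was Prcp, the prolylcarboxypeptidase of the same peptidase family as Prss16. Its level was 73.0 ± 13.4 CPM over mTEC and 16.3 ± 8.29 CPM over cTEC libraries (SD, n = 3), a difference of log2 -2.17 (SE 0.39) with an edgeR adjusted p of 0.00731, a call that no left-out library ended. Of 9 tested zinc metallopeptidases of the classes of Enpep and Phex, none passed (median log2 0.27), with no call in the endothelial contrast either. At the highest level of these was Erap1, which trims peptides for MHC class I, with 182 ± 26.6 CPM in cTEC libraries and 102 ± 12.4 in mTEC libraries (SD, n = 3), a difference of log2 0.83 (SE 0.34) with an edgeR adjusted p of 0.177. Lta4h, at 69.4 ± 3.73 against 94.7 ± 28.9 CPM, had log2 -0.45 (SE 0.33).

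Around Enpep, 4 of 9 renin-angiotensin genes were tested, of which none rose, 2 fell and 2 did not pass. Mas1, the angiotensin-(1-7) receptor gene, had 0 counts in cTEC and 197 in mTEC, at least 68.2-fold lower (edgeR adjusted p = 0.0205). Agt, the angiotensinogen gene, had 1 count against 156, a ratio of 162 (counting interval 28.7 to 6439, edgeR adjusted p = 0.0317). The Mas1 call was lost in 5 and the Agt call in 6 of 6 leave-outs (edgeR adjusted p up to 0.0770 and 0.141). The median was log2 -3.53, or -3.09 with such genes at their bound. Around Ly75, 4 of 8 mannose receptor family and other endocytic lectin genes were tested, and none passed (median log2 -0.14).

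Around Prss16, 13 lysosomal processing and autophagy genes were tested. Lamp2, a lysosomal membrane protein needed for autophagy, rose in cTEC, where it had 1584 ± 310 CPM beside 706 ± 107 CPM in mTEC (SD, n = 3). The difference was log2 1.17 (SE 0.31) with an edgeR adjusted p of 0.0378. The call was lost on leaving out any single library of the 6 (edgeR adjusted p of 0.0736 to 0.134) and with relative log expression scaling (0.0544). Ctsz, the carboxypeptidase cathepsin Z, fell to 62.7 ± 6.13 from 395 ± 107 CPM (log2 -2.66, SE 0.32, edgeR adjusted p = 0.000612), and no left-out library ended that call. The other 11 did not pass, among them Map1lc3b and Ctsb, the highest of them, at log2 0.47 (SE 0.21) and -0.22 (SE 0.23). In tomato+ against tomato- VEC, Ctsb fell with log2 -1.11 (SE 0.24, edgeR adjusted p = 0.0369) and Ctsd with -1.76 (SE 0.39, edgeR adjusted p = 0.0455), and each call was lost in 4 of 6 leave-outs (edgeR adjusted p up to 0.129 and 0.148), and also with only the 6 endothelial libraries fitted (0.0947 and 0.0821).

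Around Mgll, 9 genes of the pathways of 2-arachidonoylglycerol and other endocannabinoids were tested. None passed in cTEC against mTEC (median log2 -0.26) or between the endothelial groups (median log2 -1.69). Abhd6, another hydrolase of 2-arachidonoylglycerol, stood at 70.3 ± 10.6 against 84.0 ± 6.30 CPM in cTEC and mTEC (SD, n = 3). Ptgs2, which encodes cyclooxygenase-2, stood at 3.26 ± 4.74 against 177 ± 67.7 CPM (log2 -5.76, SE 1.78, edgeR adjusted p = 0.0717). Among 5 LIM proteins near Crip3 only Csrp3 passed, with 0 counts in cTEC and 251 in mTEC (at least 86.9-fold lower, edgeR adjusted p = 0.0493), a call lost in 6 of 6 leave-outs (edgeR adjusted p up to 0.133). Crip2 stood at 446 ± 21.3 against 442 ± 59.1 CPM (log2 0.014, SE 0.19). Among 4 tested doublecortin-domain genes Dclk1, a gene of tuft cells and neurons, fell in cTEC, with means of 6.26 ± 1.94 and 44.8 ± 20.6 CPM (SD, n = 3) in cTEC and mTEC (log2 -2.84, SE 0.65, edgeR adjusted p = 0.0224). Dcx also fell, with 0 counts against 248 (at least 85.8-fold lower, edgeR adjusted p = 0.0223). These calls were lost in 5 and 6 of 6 leave-outs (edgeR adjusted p up to 0.0876 and 0.0810). In the endothelial contrast Dclk1 fell as well, with 0.229 ± 0.112 CPM in tomato+ VEC libraries and 125 ± 83.5 CPM in tomato- VEC libraries (SD, n = 3), log2 -9.03 (SE 0.90) with an edgeR adjusted p of 0.000355, and no left-out library ended that call. The median of the 5 LIM proteins was log2 0.014 and that of the 4 doublecortin genes -1.73.

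Around Phex, 6 of 9 phosphate and mineral genes in the table were tested, and 1 fell in cTEC. Spp1, the osteopontin gene, had a mean of 201 ± 202 CPM over mTEC libraries and of 1.07 ± 1.78 CPM over cTEC libraries (SD, n = 3), a difference of log2 -7.54 (SE 1.58) with an edgeR adjusted p of 0.0157. Leaving out mTEC replicate 3 ended the call (edgeR adjusted p = 0.0735). Fgf23, the hormone that rises when Phex is lost, passed in the endothelial contrast. The tomato- VEC libraries held 1204 counts of it, or 44.2 ± 25.3 CPM (SD, n = 3), and the tomato+ VEC libraries 1 count in all, so that it was 1173-fold higher in tomato- VEC with a counting interval of 210 to 46354 (edgeR adjusted p = 0.0193). Leaving out tomato+ VEC replicate 1 ended the call (edgeR adjusted p = 0.0543), as did leaving out tomato- VEC replicate 3 (0.0536). Phex itself had 1 count in each endothelial group.

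**Figure D5:**
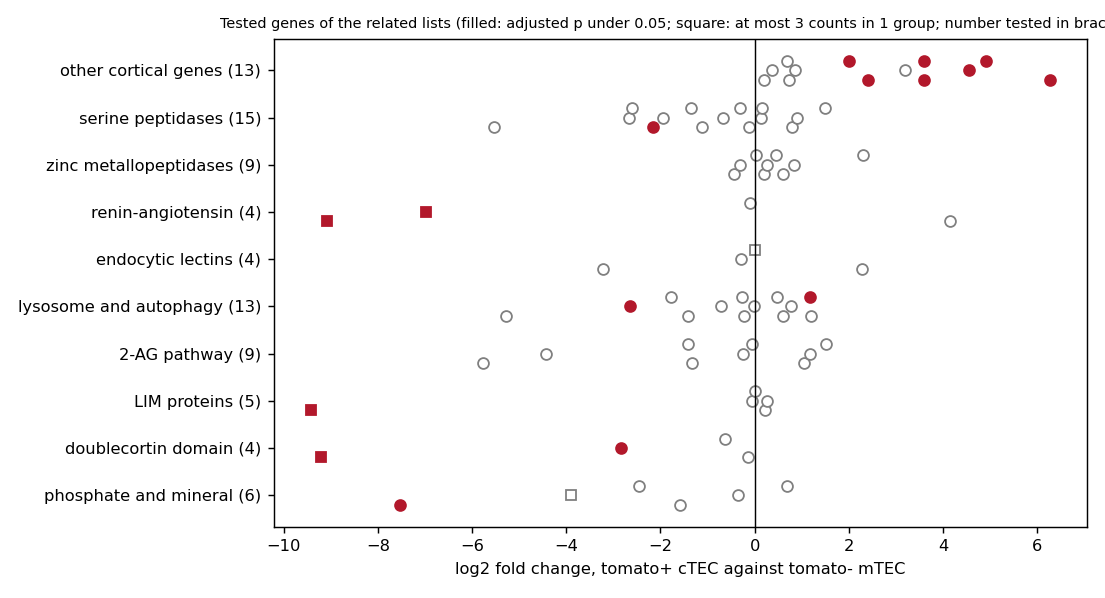
Log2 fold change of cTEC against mTEC (horizontal axis) for each tested gene of 10 related lists, filled where the edgeR adjusted p is under 0.05 and drawn as a square where 1 group has at most 3 counts, whose fitted value depends on the prior count. Of the other cortical genes, a list chosen as cortical, 7 of 13 are filled on the right. In the lists of relatives Lamp2 is the only filled symbol on the right.

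Genes whose pattern was most like that of Prss16 over the 12 libraries, by Pearson's r of log2(CPM + 1) among 11520 genes with a mean of at least 10 CPM in a group, were Snhg11 (r = 0.998), Nell2 (0.993), Cds1 (0.991), Psmb11 (0.991) and 1700019D03Rik (0.990). Snhg11, a host gene of small nucleolar RNAs, stood at 316 CPM in cTEC and 12.1 CPM in mTEC. Most like the mean of the 9 standardised genes were Aldh1a1 (r = 0.991), Fbln7 (0.990), E030003E18Rik (0.989), P4ha3 (0.988) and Gpha2 (0.985). Aldh1a1, an enzyme of retinoic acid synthesis, had a mean of 106 CPM in cTEC and 0.398 in mTEC. The 12 points share 4 groups, and the order of such genes depends on the measure, since Spearman's correlation shared none of the 5 with either list.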

How the data were processed

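Per the labels' protocols, cDNA was made from poly(A) RNA of sorted thymic stroma with a Clontech SMARTer kit. TopHat2 2.0.10 and build mm9 are named in the submitters' processing notes; for the read counter, annotation, strand setting and filters the sources used here give nothing. The deposited table holds a raw read count per gene and library, per the file headers, and RPKM values that the authors computed. For all 21602 genes with a count these equalled the count over the column total and 1 length per gene (relative tolerance 1e-06). No member shared all its counts with another symbol. Annotated genes overlap Ly75, Enpep, Prss23, Phex, Dcdc2a and Mgll (GENCODE, GRCm38), none of them in the table, and reads of antisense genes cannot be told apart.

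With filterByExpr at a minimum count of 10, 14792 genes remained; their counts were scaled by TMM and tested with edgeR 4.0.16 (quasi-likelihood, all 12 libraries, 1 term per group, 8 residual degrees of freedom, R 4.3.3), with Benjamini-Hochberg adjustment over all tested genes and a threshold of 0.05. Folds against a group with 0 counts use a floor of 3 counts over the group; those against 1 to 3 counts have an exact 95% counting interval. Named genes were the 9 members, list genes of smallest p or highest mean and the 5 most like Prss16 or the members' mean; list genes called only in endothelium (Ctsb, Ctsd, Il7, Fgf23) and the endothelial values of Dclk1, Ctsl and Cxcl12 were named after their values were seen. The members and lists were chosen with earlier results of these data known. Alternatives were DESeq2 1.42.0, limma-trend (limma 3.58.1) on log2(RPKM + 1) and log2(RPKM + 0.1), relative log expression scaling, no filter, a fit of just the 6 libraries compared, a block for the replicate number, and leaving out each library in turn. Scripts were tested on simulated counts.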

Additional observations from a re-analysis of the deposited data

Results flagged for a closer look

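The Prss23 libraries lay in opposite order under the reporter contrast in endothelium and in epithelium. Every tomato+ VEC library was below every tomato- VEC library (log2 -1.57, SE 0.46), which missed the threshold (edgeR adjusted p = 0.116), while every tomato+ cTEC library was above every tomato- mTEC library. The difference between these contrasts was not tested, since the epithelial one was used to choose the gene.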

How the results depend on the processing

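The calls in endothelium depended on the tool. Against 244 genes called in the main analysis, 1324 were called by DESeq2, 473 and 447 by limma-trend on log2(RPKM + 1) and log2(RPKM + 0.1), 112 with only the 6 libraries compared, and 174 to 394 when a library was left out, the 394 without tomato+ VEC replicate 3. Between cTEC and mTEC, where 1158 were called, the numbers were 2323, 2530, 2172, 2487 and 428 to 702. The leave-outs also have fewer samples, and the cause of these changes was not tested. For cTEC against tomato+ VEC, 2375 to 3082 were called when a library was left out. Of the related lists 16 genes were called between cTEC and mTEC, against 27 by limma-trend on log2(RPKM + 1), 26 with only the 6 libraries compared and 8 to 11 when a library was left out. Spearman's correlation shared 0 of the 5 genes most like Prss16 and 0 of the 5 most like the mean.

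Deviations of same-numbered libraries from their group means had correlations of -0.01 to 0.08 over genes, and those of differently numbered libraries -0.06 to 0.03. Such small values cannot decide whether the numbers pair libraries, and the sources used here do not say. With the replicate number as a block 178, 814 and 2869 genes were called in the 3 comparisons. Small endothelial differences changed sign. Over the leave-outs Prss16 ranged from log2 -0.26 (without tomato+ VEC replicate 3) to 0.75, Tbata from -2.60 to 0.064 (without tomato- VEC replicate 3) and Enpep from -0.62 to 1.43, below 0 in 4 of 6. By limma-trend on log2(RPKM + 1) Enpep was at -0.000616. Of 452 alternatives for single genes 375 kept direction and side of the threshold or moved by less than the replicate spread, 64 lost a call, 6 gained one and 7 changed sign. The 6 fitted differences of members between cTEC and mTEC kept their direction in every alternative run. Nothing is read from this, since the choice of the genes fixed that direction. Members with few counts in a group are limited by depth.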
